A study of Mus musculus with 22 samples.

Results

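The genes described here are 37 antioxidant, glutathione and iron storage genes, listed by symbol, in microglia of wild-type and Trem2-deficient mice fed cuprizone, the tocopherol product Covi-Ox, or both. Of the 37 symbols, 34 had a probe set (the group of array probes that reads a gene) listed with that gene alone, and the 1 with the highest mean was used where a gene had several. Prdx5, Prdx6 and G6pdx had no such probe set and are not analysed here. After a filter on dim genes, 31 members remained among 11830 genes tested of 19937 genes measured. Nqo1 lay at 2.67 to 3.57, Sod3 at 4.55 to 5.22 and Mgst1 at 3.65 to 4.97 (log2 intensity), below the median of every array, and were not tested. A level this dim is not well told from background.

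Expression was measured on 22 whole-transcript arrays, 11 per genotype, in cells sorted from brain as positive for CD11b, CD45 and F4/80. The Trem2 knockout (KO) lacks a lipid-sensing receptor of microglia and is compared with wild type (WT); strain, age, sex and the number of mice behind an array are not given in the labels. Control groups, labelled negative control and taken here as on normal chow, had 2 arrays in each genotype and all other groups had 3. Cuprizone, a copper chelator that kills oligodendrocytes, was fed at 0.2% of the diet for 4 weeks after 2 weeks on chow. Covi-Ox T70, a mixed tocopherol (vitamin E) product, was fed at 0.1% of the diet with an added 1100 IU/g of alpha tocopherol for 4 weeks. The WT group given both additives had Covi-Ox for 2 weeks first. Of the KO mice, 2 groups have labels that contradict each other: set A is titled as having had both additives and described elsewhere as Covi-Ox alone, and set B is the reverse. Every label gives both sets Covi-Ox, so the mean of sets A and B against the mean of KO control and KO cuprizone has the same meaning under either reading, and so has KO against WT over all 4 diets. Nothing states that arrays of a group came from separate mice, so p-values measure the spread between these arrays, which may be technical. In sorted bulk samples, fewer cells of a type and less RNA per cell cannot be told apart.

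The members form a linked defence against oxidants. NRF2 (Nfe2l2), held in check by KEAP1, is a transcription factor that switches on many of them, and heme oxygenase 1 (Hmox1), Nqo1, Gclm, Srxn1 and Txnrd1 are textbook targets. Superoxide dismutases turn superoxide into hydrogen peroxide, which catalase, the glutathione peroxidases and the peroxiredoxins remove. Glutathione is made from cystine taken up through Slc7a11 by glutamate-cysteine ligase (Gclc, Gclm) and glutathione synthetase (Gss). Gsr, thioredoxin and thioredoxin reductase return the oxidised forms with NADPH, which Pgd and Me1 make. Taldo1 and Tkt belong to the same pentose phosphate pathway as Pgd but do not make NADPH themselves. Ferritin (Fth1, Ftl1) stores iron in a form that does not drive radical chemistry. Alpha tocopherol stops the chain reaction of lipid peroxidation in membranes, and Gpx4 acts at another step by reducing lipid hydroperoxides. Microglia hold and recycle iron and lipid when they clear myelin.

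The labels were checked on the arrays. Trem2 read 10.0 to 10.75 (log2 intensity) in the 11 WT arrays and 6.40 to 6.83 in the 11 KO arrays. All 11 microglial markers measured, of 12 listed, lay above the median of every array. The mean of the neutrophil list was 6.18 and 6.19 in WT control, 4.95 to 6.19 in WT cuprizone, 4.20 to 4.39 in WT Covi-Ox and 4.80 to 4.98 in WT both. In KO it was 5.70 and 5.72 in control, 5.20 to 6.13 with cuprizone, 4.57 to 4.74 in set A and 4.42 to 5.12 in set B. Of the 12 neutrophil genes 7 passed the filter, led by S100a8 (3.87 to 10.47) and S100a9 (4.63 to 10.61), and Ly6g (2.86 to 3.83) and Cxcr2 (2.35 to 3.69) stayed below the array medians. On 3 arrays the mean of 28 immediate-early genes (of 29 listed), transcripts that rise within minutes of stress such as cell dissociation, stood apart: 8.24 in WT cuprizone 3, 8.47 in KO cuprizone 2 and 8.52 in KO cuprizone 3, against 9.45 to 9.72 on the other 19. Few genes of the neuron (0 to 2 of 10), erythroid (1 of 5) and T and NK cell (1 to 3 of 10) lists lay above an array's median. Of the border macrophage list 9 to 10 of 10 lay above it, with Pf4 at 8.83 to 10.12 and Mrc1 at 8.09 to 9.71. Of the monocyte list 3 to 6 of 7 did, of the astrocyte list 2 to 7 of 10, and of the endothelial list 3 to 4 of 9. Of the oligodendrocyte list 4 to 6 of 13 did, with Cnp at 6.75 to 7.38, Mbp at 6.01 to 6.70 and Sox10 at 5.68 to 6.17 above it on every array.

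**Figure D1:**
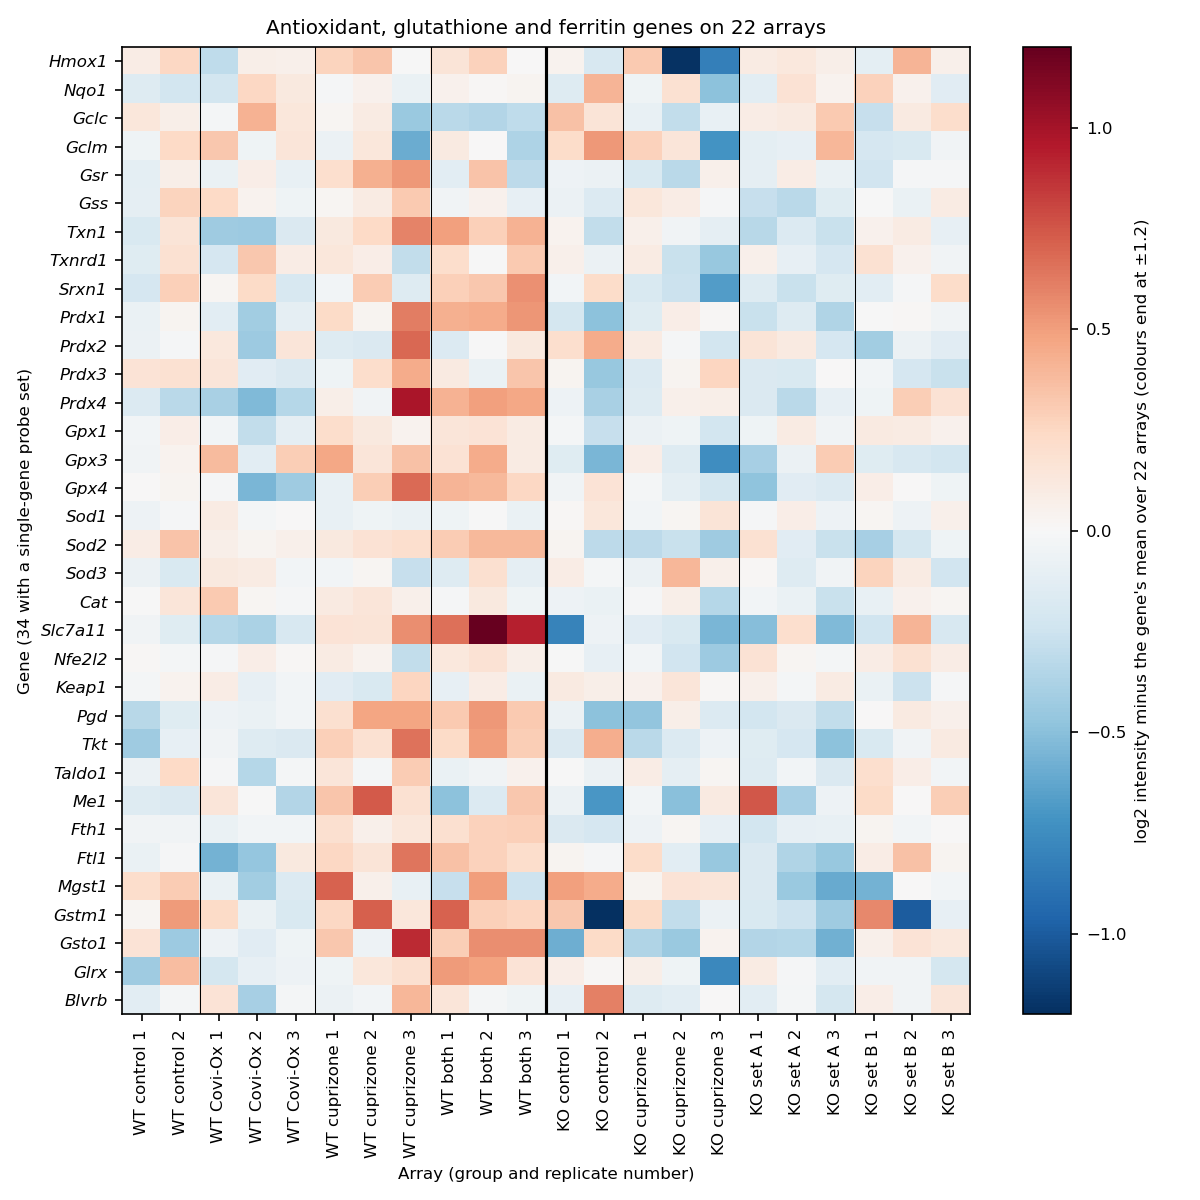
Each row is a gene and each column an array, coloured by log2 intensity minus the mean of that gene over the 22 arrays. The WT both columns are high for Slc7a11, Prdx4, Txn1 and Prdx1, and Hmox1 is low in KO cuprizone 2 and 3.

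Covi-Ox moved no member past the threshold in either genotype. In WT, 0 of 31 members were called (limma, adjusted p under 0.05 over all genes tested) between the Covi-Ox and no-Covi-Ox groups, with chow and cuprizone weighted equally; over all genes 0.22% were called. In KO, 0 of 31 members were called, against 0.144% of all genes. The difference between the genotypes in the Covi-Ox effect was called for 0 of 31 members, against 0.00845% of all genes, so in neither genotype did the tocopherol diet change these genes detectably at this number of arrays. At an unadjusted p under 0.05 there was 1 member in WT (8.94% of all genes), 3 in KO (11.8% of all genes) and 3 for the genotype difference (6.58% of all genes). The median member difference, with minus without Covi-Ox, was -0.03 on the log2 scale in WT beside -0.02 over all genes, and 0.05 in KO beside 0.01.

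The intervals bound what could have been missed in these means over chow and cuprizone. In WT the 95% interval of 29 of 31 members lay within a 1.5-fold change either way, the exceptions being Me1 and Gstm1, and in KO that of 28 of 31, the exceptions being Hmox1, Me1 and Gstm1. All 31 lay within 2-fold in each genotype. For the genotype difference, 26 of 31 lay within 1.5-fold and 28 within 2-fold. Bounds were looser where chow and cuprizone were not averaged. Within 1.5-fold lay 22 of 31 for Covi-Ox alone in WT, 25 for Covi-Ox on cuprizone in WT and 9 for their difference. In KO, 18 to 23 of 31 did for sets A and B against either reference group. For the averaged effects in WT and KO and the genotype difference, 0 members were called under each of the 9 other processing settings. With an array left out at a time, WT and the genotype difference stayed at 0. KO went to 1 of 31 (Hmox1) without KO cuprizone 1. Over the 11 such fits for KO, 0.00845% to 4.87% of all genes were called, so this call is no result about the members.

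**Figure D2:**
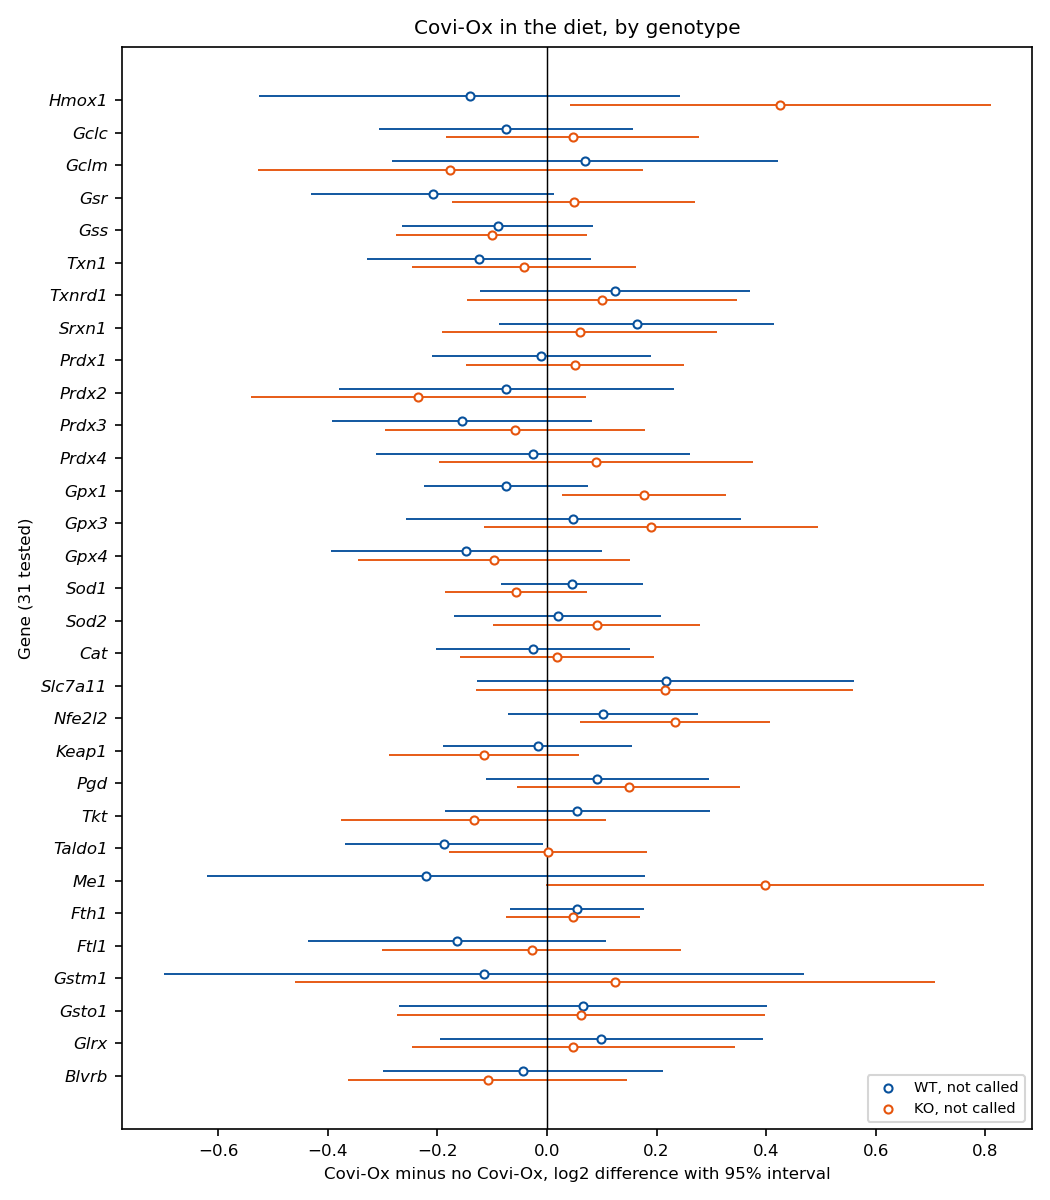
Points are the log2 difference, with minus without Covi-Ox, for the 31 genes tested in WT (blue) and KO (orange), with 95% intervals. All points are open, for not called; Hmox1 has the largest value in KO, at 0.43.

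Nfe2l2 and Keap1, the transcription factor and its repressor, varied little in WT. Nfe2l2 read 11.20 and 11.16 in control, 11.18, 11.26 and 11.20 with Covi-Ox, 11.28, 11.23 and 10.89 with cuprizone, and 11.31, 11.36 and 11.25 with both in WT. The KO arrays read 11.18 and 11.08 in control, 11.15, 10.95 and 10.75 with cuprizone, 11.36, 11.21 and 11.16 in set A, and 11.28, 11.37 and 11.27 in set B. The lowest values were those of the 3 arrays low in immediate-early genes (10.89, 10.95 and 10.75, against 11.08 to 11.37 on the other 19). The Covi-Ox difference was 0.10 ± 0.08 (SE) in WT and 0.23 ± 0.08 in KO (limma adjusted p = 0.258). Keap1 read 5.94 and 6.01 in control, 6.06, 5.87 and 5.94 with Covi-Ox, 5.83, 5.79 and 6.23 with cuprizone, and 5.87, 6.06 and 5.89 with both in WT. In KO it read 6.07 and 6.04 in control, 6.02, 6.11 and 5.99 with cuprizone, 6.03, 5.95 and 6.07 in set A, and 5.88, 5.71 and 5.96 in set B. Set B lay below KO control and KO cuprizone, and set A overlapped both; the Covi-Ox differences were -0.02 in WT and -0.12 in KO.

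Hmox1, which breaks heme down to biliverdin, carbon monoxide and iron, had the largest Covi-Ox difference of the 31 tested members in KO. In KO it read 9.66 and 9.42 in control, 9.93, 8.43 and 8.79 with cuprizone, 9.72, 9.74 and 9.68 in set A, and 9.50, 10.02 and 9.67 in set B. WT arrays read 9.71 and 9.86 in control, 9.31, 9.69 and 9.68 with Covi-Ox, 9.88, 9.95 and 9.61 with cuprizone, and 9.76, 9.89 and 9.62 with both. KO cuprizone 2 and 3 were lower than all other arrays, while WT cuprizone 3, the other array low in immediate-early genes, was not. The Covi-Ox difference was -0.14 ± 0.18 in WT and 0.43 ± 0.18 in KO (95% interval 0.04 to 0.81; limma adjusted p = 0.364), and the genotype difference was 0.57 ± 0.26 (limma adjusted p = 0.742). Without the 3 arrays low in immediate-early genes the KO difference was -0.02, and without KO cuprizone 1 it was 0.65 (limma adjusted p = 0.00726). The immediate-early mean itself was 0.44 higher with Covi-Ox in KO; its part in the Hmox1 difference was not tested beyond this. Blvrb, which reduces biliverdin, differed by -0.04 in WT and -0.11 in KO.

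Of the further NRF2 targets, Nqo1 could not be read: it lay at 3.01 and 2.95 in control, 2.95, 3.41 and 3.28 with Covi-Ox, 3.15, 3.21 and 3.08 with cuprizone, and 3.22, 3.17 and 3.19 with both in WT. In KO it lay at 3.01 and 3.57 in control, 3.11, 3.35 and 2.67 with cuprizone, 3.03, 3.34 and 3.21 in set A, and 3.44, 3.22 and 3.02 in set B. Txnrd1 read 6.58 and 6.91 in control, 6.52, 7.05 and 6.81 with Covi-Ox, 6.86, 6.81 and 6.43 with cuprizone, and 6.93, 6.72 and 7.04 with both in WT. Its KO values were 6.78 and 6.66 in control, 6.82, 6.45 and 6.27 with cuprizone, 6.78, 6.63 and 6.52 in set A, and 6.90, 6.78 and 6.69 in set B. The lowest Txnrd1 values came from WT cuprizone 3 and KO cuprizone 2 and 3, the arrays low in immediate-early genes, and the Covi-Ox differences were 0.12 and 0.10. Srxn1, which restores overoxidised peroxiredoxins, read 5.97 and 6.47 in control, 6.21, 6.41 and 5.99 with Covi-Ox, 6.14, 6.48 and 6.02 with cuprizone, and 6.46, 6.50 and 6.73 with both in WT. In KO the Srxn1 values were 6.14 and 6.40 in control, 6.0, 5.93 and 5.51 with cuprizone, 6.02, 5.92 and 6.04 in set A, and 6.05, 6.17 and 6.40 in set B. Its Covi-Ox differences were 0.16 in WT and 0.06 in KO. Gclm, the modifier subunit of glutamate-cysteine ligase, read 5.97 and 6.26 in control, 6.34, 5.98 and 6.17 with Covi-Ox, 5.95, 6.16 and 5.43 with cuprizone, and 6.13, 6.03 and 5.65 with both in WT. In KO it read 6.24 and 6.55 in control, 6.29, 6.16 and 5.31 with cuprizone, 5.91, 5.92 and 6.42 in set A, and 5.82, 5.84 and 5.98 in set B. Set B lay below KO control, and both sets overlapped KO cuprizone. The Covi-Ox differences were 0.07 and -0.18.

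Sod1, Cat and Gpx1, among the enzymes that remove superoxide and peroxide, were not called in any comparison. Sod1, the cytosolic superoxide dismutase, read 11.12 and 11.17 in control, 11.28, 11.16 and 11.19 with Covi-Ox, 11.09, 11.13 and 11.10 with cuprizone, and 11.13, 11.18 and 11.10 with both in WT. KO arrays gave 11.20 and 11.32 in control, 11.15, 11.20 and 11.33 with cuprizone, 11.17, 11.26 and 11.12 in set A, and 11.21, 11.12 and 11.24 in set B. Its span over all 22 arrays was 11.09 to 11.33, and the Covi-Ox differences were 0.05 ± 0.06 in WT and -0.06 ± 0.06 in KO. Catalase (Cat) read 8.46 and 8.61 in control, 8.77, 8.49 and 8.45 with Covi-Ox, 8.57, 8.61 and 8.53 with cuprizone, and 8.45, 8.58 and 8.41 with both in WT. For KO, Cat was 8.40 and 8.38 in control, 8.45, 8.53 and 8.12 with cuprizone, 8.43, 8.38 and 8.20 in set A, and 8.38, 8.52 and 8.49 in set B. Its Covi-Ox differences were -0.03 ± 0.08 and 0.02 ± 0.08. Gpx1, the main cytosolic glutathione peroxidase, read 10.96 and 11.07 in control, 10.96, 10.70 and 10.88 with Covi-Ox, 11.20, 11.11 and 11.03 with cuprizone, and 11.13, 11.16 and 11.10 with both in WT. Gpx1 in KO read 10.97 and 10.71 in control, 10.92, 10.94 and 10.77 with cuprizone, 10.94, 11.09 and 10.96 in set A, and 11.10, 11.09 and 11.04 in set B. Set B lay above KO control and KO cuprizone, and set A overlapped KO control and began at the highest KO cuprizone value. The Covi-Ox difference was -0.07 ± 0.07 in WT and 0.18 ± 0.07 in KO (limma adjusted p = 0.336), with a genotype difference of 0.25 ± 0.10 (limma adjusted p = 0.707).

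Mgst1, a microsomal glutathione transferase and one of the 3 members too dim to test, is given by its values alone, which are not ranked against those of brighter genes. It read 4.47 and 4.56 in control, 4.18, 3.84 and 4.09 with Covi-Ox, 4.97, 4.32 and 4.16 with cuprizone, and 3.98, 4.76 and 4.01 with both in WT. In KO, Mgst1 read 4.75 and 4.70 in control, 4.29, 4.42 and 4.40 with cuprizone, 4.09, 3.81 and 3.65 in set A, and 3.69, 4.26 and 4.22 in set B. The Covi-Ox values were mostly the lower ones, and in KO the 6 arrays of sets A and B did not overlap the 5 others. Fitted with no filter on dim genes, the difference was -0.36 ± 0.15 in WT (limma adjusted p = 0.656 over 19937 genes) and -0.59 ± 0.15 in KO (limma adjusted p = 0.15), so neither passed. The neutrophil list mean fell with Covi-Ox too, by 1.29 in WT and 1.05 in KO, and its part in the Mgst1 values was not tested.

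Within WT, Covi-Ox alone was set against control and both additives against cuprizone. Covi-Ox alone called 0 of 31 members (0.0338% of all genes), and Covi-Ox on top of cuprizone called 0 of 31 (0.152% of all genes). Slc7a11, the cystine importer, read 4.32 and 4.21 in control, 4.02, 3.97 and 4.16 with Covi-Ox, 4.52, 4.51 and 4.91 with cuprizone, and 5.02, 5.57 and 5.29 with both in WT. The 3 WT both arrays lay above all other WT arrays. Its difference was 0.64 ± 0.22 with cuprizone (95% interval 0.18 to 1.10; limma adjusted p = 0.357) and -0.21 ± 0.25 on chow, a difference of differences of 0.86 (limma adjusted p = 0.676). Slc7a11 passed the filter only through WT both 2 and 3, so it had to differ and supports no count. For the difference of the Covi-Ox effects, 0 of 31 members were called (0.0254% of all genes), with a member median of 0.13 beside -0.01. Glutathione reductase (Gsr) was lower in WT both than in WT cuprizone (-0.41 ± 0.14, limma adjusted p = 0.365) and Srxn1 higher (0.35 ± 0.16, limma adjusted p = 0.586); neither passed. The immediate-early mean was 0.44 higher in WT both than in WT cuprizone, which holds the low array WT cuprizone 3.

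In KO, sets A and B were each compared with both reference groups, since the labels contradict each other on which set also had cuprizone. Against KO control, set A called 0 of 31 members (0.0338% of all genes) and set B called 0 of 31 (0.744% of all genes). Against KO cuprizone, set A called 0 of 31 (0% of all genes) and set B 0 of 31 (0.161% of all genes). Set A against set B called 0 of 31 (0.00845% of all genes), with Ftl1 at -0.49 ± 0.17 (limma adjusted p = 0.371) and Gsto1 at -0.54 ± 0.21 (limma adjusted p = 0.448). Hmox1 was 0.66 higher in set A and 0.68 higher in set B than in KO cuprizone, from the same 2 low arrays. Without KO cuprizone 1, Hmox1 was called in both sets against cuprizone, with Nfe2l2 in set B. In fits with an array left out, up to 2.22% of all genes were called for set A and 1.84% for set B against cuprizone. These calls rest on the 2 arrays left in KO cuprizone. Leaving out a KO control array leaves a single array in that group, so calls of those fits are not given for the sets. The 2 KO control arrays differed for Gstm1, which read 7.15 and 5.16.

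Among mice on Covi-Ox, adding cuprizone did move members in WT. Between WT both and WT Covi-Ox, 9 of 31 members were called (29.0%), beside 7.82% of all genes. Of these, 8 were higher (25.8% of members, 4.65% of all genes) and 1 was lower (3.23% of members, 3.17% of all genes). Thioredoxin, 2 peroxiredoxins, Gpx4, the cystine importer, Pgd and both ferritin chains rose, and Gclc fell. Slc7a11 is among them and had to differ, as said; without it and Me1, the 2 members that passed the filter through 2 arrays alone, 8 of 29 were called (27.6%), 7 higher (24.1%) and 1 lower (3.45%). The groups did not overlap for any of the 9. Other members that were not called also had groups without overlap, so this does not set the 9 apart. The share of all genes without overlap is not given here. The member median was 0.20 beside -0.03 over all genes, and 15 of 31 members (48.4%) had an unadjusted p under 0.05, against 20.8% of all genes (14 of 29, or 48.3%, without Slc7a11 and Me1).

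Thioredoxin (Txn1), the small protein that reduces peroxiredoxins and other disulfides, read 8.58 and 8.92 in control, 8.34, 8.33 and 8.59 with Covi-Ox, 8.88, 9.0 and 9.36 with cuprizone, and 9.25, 9.05 and 9.18 with both in WT. WT Covi-Ox 1 and 2 were the lowest WT arrays, and the WT both arrays exceeded all other WT arrays but WT cuprizone 3. It rose by 0.74 ± 0.13 with cuprizone on Covi-Ox (1.67-fold; limma adjusted p = 0.00105). KO arrays read 8.81 and 8.47 in control, 8.83, 8.72 and 8.65 with cuprizone, 8.43, 8.60 and 8.50 in set A, and 8.82, 8.86 and 8.67 in set B, a narrower range in which set A lay below set B and KO cuprizone. Its reductase Txnrd1 differed by 0.10 and was not called.

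Prdx1 and Prdx4, peroxiredoxins of the cytosol and of the endoplasmic reticulum, rose together. Prdx1 read 10.11 and 10.22 in control, 10.06, 9.77 and 10.08 with Covi-Ox, 10.42, 10.23 and 10.81 with cuprizone, and 10.62, 10.64 and 10.72 with both in WT. All WT both arrays exceeded all WT Covi-Ox arrays, by 0.69 ± 0.13 on average (limma adjusted p = 0.00177). In KO, Prdx1 read 9.98 and 9.69 in control, 10.05, 10.27 and 10.20 with cuprizone, 9.92, 10.04 and 9.83 in set A, and 10.19, 10.20 and 10.15 in set B. Prdx4 read 8.20 and 8.05 in control, 7.99, 7.85 and 8.03 with Covi-Ox, 8.45, 8.33 and 9.35 with cuprizone, and 8.79, 8.86 and 8.84 with both in WT. The WT both arrays lay close together, and the rise was 0.88 ± 0.18 (1.84-fold; limma adjusted p = 0.00466). WT cuprizone 3, at 9.35, was the highest Prdx4 value of all. KO values were 8.31 and 7.98 in control, 8.22, 8.43 and 8.44 with cuprizone, 8.20, 8.05 and 8.27 in set A, and 8.32, 8.67 and 8.55 in set B. A second Prdx1 probe set gave 0.58 ± 0.11. Prdx2 and Prdx3, of the cytosol and of mitochondria, differed by 0.04 and 0.17 and were not called. The second probe set of Prdx2 gave 0.70 ± 0.21 and passed the threshold when added to the genes tested (limma adjusted p = 0.0484), so its probe sets disagreed.

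Gpx4, the peroxidase for lipid hydroperoxides, read 8.42 and 8.44 in control, 8.39, 7.86 and 7.99 with Covi-Ox, 8.32, 8.70 and 9.08 with cuprizone, and 8.81, 8.79 and 8.66 with both in WT. WT Covi-Ox 2 and 3 were the lowest WT values, and the difference was 0.68 ± 0.16 (limma adjusted p = 0.0102). Its second probe set gave 0.19 ± 0.26 (limma adjusted p = 0.754), so the call depends on the probe set used. In KO, Gpx4 read 8.36 and 8.58 in control, 8.38, 8.29 and 8.20 with cuprizone, 7.93, 8.27 and 8.24 in set A, and 8.49, 8.41 and 8.36 in set B, with no separation of the sets from cuprizone. Slc7a11 differed by 1.24 ± 0.22 (limma adjusted p = 0.0011), but its WT Covi-Ox values lie below the array medians, so no fold is given. Its KO values of 3.56 and 4.30 in control, 4.22, 4.18 and 3.81 with cuprizone, 3.85, 4.56 and 3.83 in set A, and 4.12, 4.76 and 4.16 in set B overlapped throughout. Gclc, the catalytic subunit that starts glutathione synthesis, went the other way. It read 7.16 and 7.09 in control, 6.99, 7.44 and 7.15 with Covi-Ox, 7.05, 7.12 and 6.57 with cuprizone, and 6.69, 6.67 and 6.71 with both in WT. The difference was -0.51 ± 0.15 (limma adjusted p = 0.0407), and WT cuprizone 3 at 6.57 lay lower still. The KO values of Gclc were 7.37 and 7.17 in control, 6.93, 6.72 and 6.93 with cuprizone, 7.11, 7.13 and 7.33 in set A, and 6.74, 7.12 and 7.23 in set B. Gclm differed by -0.23 and Gss by -0.10; neither was called.

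Pgd, which makes NADPH in the pentose phosphate pathway, read 8.24 and 8.42 in control, 8.51, 8.48 and 8.53 with Covi-Ox, 8.76, 9.04 and 9.04 with cuprizone, and 8.88, 9.08 and 8.88 with both in WT. Both cuprizone-fed WT groups lay above both groups without it. The difference on Covi-Ox was 0.44 ± 0.13 (limma adjusted p = 0.0425). KO values were 8.50 and 8.07 in control, 8.09, 8.64 and 8.40 with cuprizone, 8.35, 8.39 and 8.27 in set A, and 8.57, 8.68 and 8.63 in set B. Tkt, of the same pathway, differed by 0.47 ± 0.15 and was not called (limma adjusted p = 0.0716). The ferritin heavy chain Fth1 read 11.97 and 11.98 in control, 11.93, 11.98 and 11.98 with Covi-Ox, 12.20, 12.08 and 12.16 with cuprizone, and 12.21, 12.29 and 12.30 with both in WT. Its WT both and WT Covi-Ox arrays differed by 0.30 ± 0.08 (limma adjusted p = 0.0221), a small change with tight groups. In KO, Fth1 read 11.84 and 11.82 in control, 11.96, 12.04 and 11.91 with cuprizone, 11.80, 11.91 and 11.93 in set A, and 12.05, 11.98 and 12.02 in set B. The light chain Ftl1 read 7.70 and 7.76 in control, 7.21, 7.31 and 7.89 with Covi-Ox, 8.02, 7.93 and 8.42 with cuprizone, and 8.12, 8.05 and 7.98 with both in WT. Its difference was 0.58 ± 0.17 (limma adjusted p = 0.0449), and WT Covi-Ox 1 and 2 were the lowest Ftl1 values of all arrays. KO values of Ftl1 were 7.81 and 7.76 in control, 7.99, 7.65 and 7.32 with cuprizone, 7.60, 7.42 and 7.32 in set A, and 7.87, 8.13 and 7.81 in set B. A further 3 probe sets listed for Ftl1 together with other genes were left out.

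How firmly these calls stood depended on the arrays. With the filter kept as set on all 22 arrays, Txn1, Prdx1 and Prdx4 were called whichever of the 6 arrays was left out. Slc7a11 was too, but without WT both 2 or 3 it would not have passed the filter anew. Gpx4 was lost without WT Covi-Ox 2. Gclc, Fth1 and Ftl1 were each called in only 1 of the 6 fits with an array left out, and Pgd in 0 of 6. Under the 9 other settings Pgd and Ftl1 were called in 6, Gclc and Fth1 in 7, and Gpx4 in 8. The setting that lost Gpx4 averaged all probe sets of a gene. Thus 4 members were called without WT Covi-Ox 2 and 5 without WT both 2 or 3. Without WT Covi-Ox 1, WT Covi-Ox 3 or WT both 1, 6 were called. Between the same groups the monocyte list mean was 0.85 higher (5.67 to 5.92 in WT both, 4.93 to 5.01 in WT Covi-Ox), the neutrophil list 0.60 higher, the border macrophage list 0.44 lower and the microglia list 0.36 lower. The part of these shifts in the members' differences was not tested.

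The start regions of members that rose together are shown, since NRF2 is known to act through a short DNA motif in its targets. RefSeq promoter windows (GRCm38.p6; 250 bases before to 50 after the start) matched 32 of 37 members; Hmox1, Gclc, Gsr, Prdx6 and Sod3 had no entry. The antioxidant response element core TGACNNNGC, searched on both strands, was found in 10 of 32 members (31.2%) and in 3781 of 27025 genes with a window. The AP-1 motif TGANTCA, likewise on both strands, was found in 4 of 32 (12.5%) and in 2425 of those genes (9.0%). In Prdx1 and Me1 it overlaps the antioxidant core. Of the 9 called members, 8 have a window, and the core was found in Prdx1 and Pgd. In Pgd it lies after the start, within the transcribed bases. Below are 250 bases before the start of Prdx1 (chr4:116685349-116685598, plus strand), with its matches to either motif in capitals, and of Txn1 (chr4:57956412-57956661, minus strand) and Prdx4 (chrX:155338461-155338710, minus strand), which rose as well and hold neither.
Prdx1: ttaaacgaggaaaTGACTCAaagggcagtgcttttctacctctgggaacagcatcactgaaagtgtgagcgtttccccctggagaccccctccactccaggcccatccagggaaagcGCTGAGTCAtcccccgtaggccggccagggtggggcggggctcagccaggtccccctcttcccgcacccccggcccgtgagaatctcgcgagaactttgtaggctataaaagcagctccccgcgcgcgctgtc
Txn1: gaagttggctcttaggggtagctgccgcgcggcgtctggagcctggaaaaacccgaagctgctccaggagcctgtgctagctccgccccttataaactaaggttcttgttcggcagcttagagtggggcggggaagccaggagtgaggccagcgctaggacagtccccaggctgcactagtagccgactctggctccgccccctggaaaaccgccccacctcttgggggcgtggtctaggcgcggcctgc
Prdx4: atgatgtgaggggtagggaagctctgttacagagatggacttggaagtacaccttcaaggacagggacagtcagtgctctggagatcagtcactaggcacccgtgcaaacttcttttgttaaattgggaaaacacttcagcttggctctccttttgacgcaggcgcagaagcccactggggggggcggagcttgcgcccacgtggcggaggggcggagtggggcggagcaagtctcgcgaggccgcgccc

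For comparison, the core with 10 bases on each side is given for Pgd, which was called, and for Gclm, Txnrd1 and Me1, which were not; capitals mark the match, on the strand that the gene is read from, where a core on the other strand appears as its reverse complement. They lie at chr4:149166061-149166089, chr3:122245413-122245441, chr10:82859104-82859132 and chr9:86695902-86695930 (GRCm38.p6). The Pgd match lies after the start and the Me1 match spans it.
Pgd: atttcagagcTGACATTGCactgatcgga
Gclm: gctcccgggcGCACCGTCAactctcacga
Txnrd1: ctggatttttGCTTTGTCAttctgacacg
Me1: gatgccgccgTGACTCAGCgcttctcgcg
A match is a string of letters and says nothing of binding. Members with the core did not all move: Gclm, Txnrd1, Srxn1, Sod1, Nfe2l2 and Me1 hold it and were not called in any comparison.

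**Figure D3:**
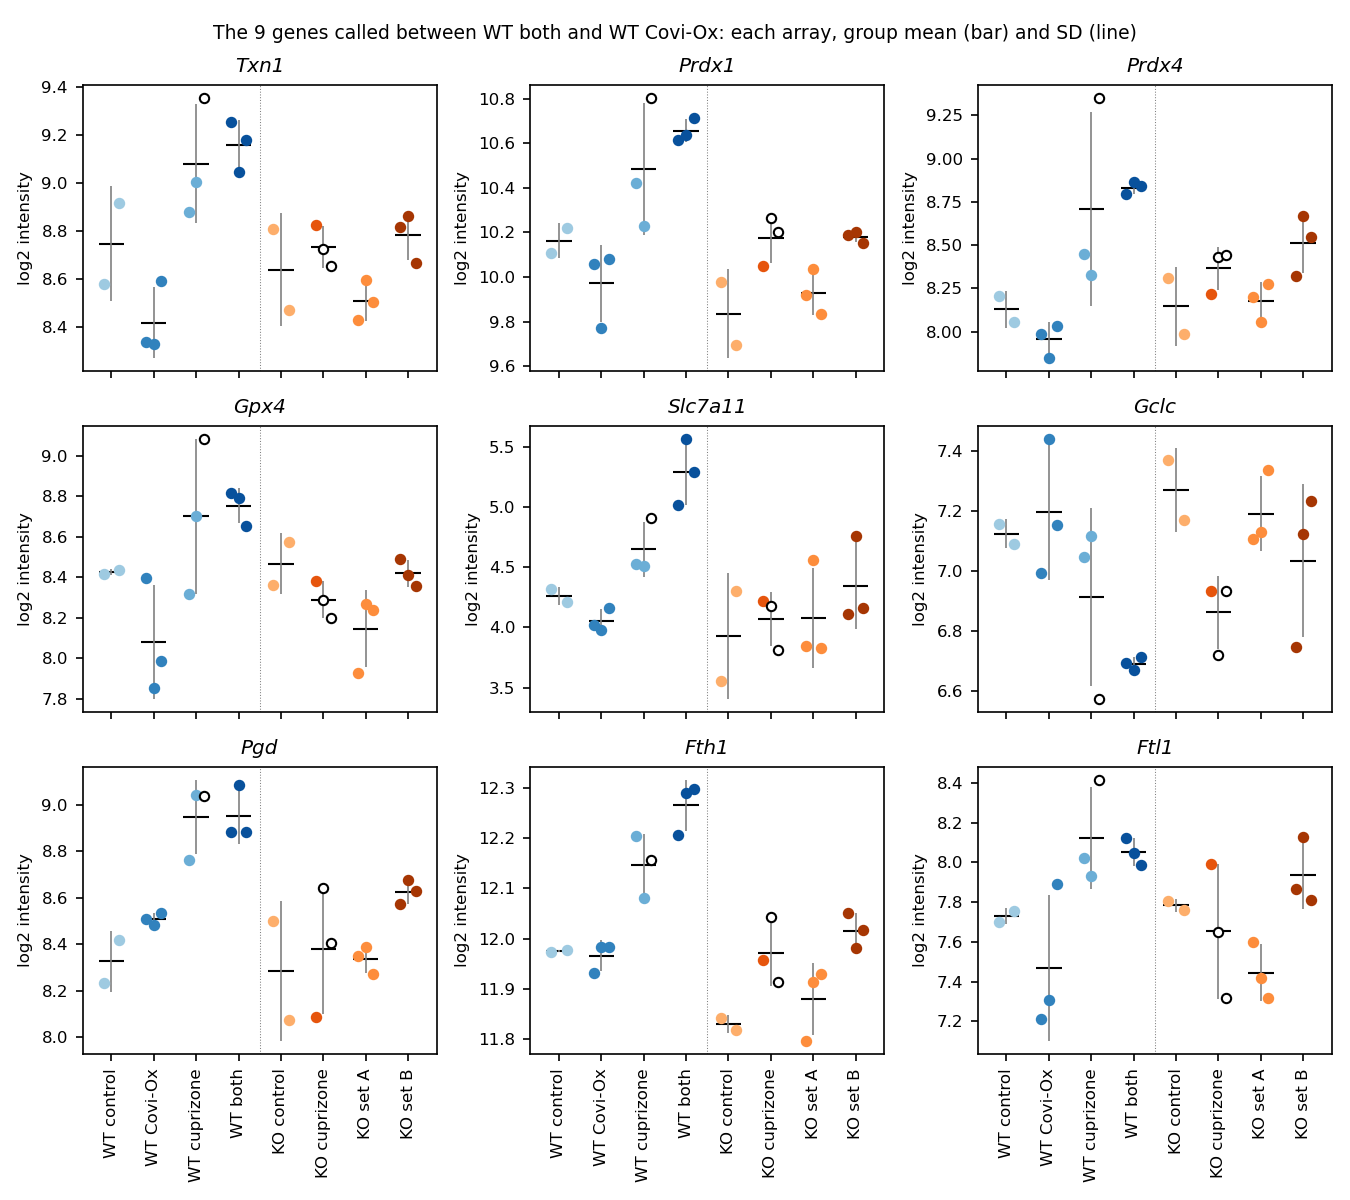
Each panel is 1 of the 9 genes called between WT both and WT Covi-Ox, with every array as a point (log2 intensity), the group mean as a bar and the SD as a line; open points are the 3 arrays low in immediate-early genes. WT both lies apart from WT Covi-Ox in each panel, above it except in Gclc.

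On chow, cuprizone called 1 of 31 members in WT (3.23%), beside 2.5% of all genes called either way and 1.8% called higher: Pgd, which rose by 0.62 ± 0.15 (limma adjusted p = 0.027). Tkt (0.63 ± 0.17, limma adjusted p = 0.0568) and Prdx4 (0.58 ± 0.20, limma adjusted p = 0.149) had differences of like size that did not pass. Txn1 differed by 0.33 and Slc7a11 by 0.39. The member median was 0.12 beside -0.02. Pgd was lost without WT control 1, WT control 2 or WT cuprizone 3; without WT cuprizone 2, Prdx4 and Tkt were called and Pgd was not, and without either KO control array Tkt was called beside Pgd. The effects of cuprizone on Covi-Ox and on chow share no arrays, but their difference is the WT difference of the Covi-Ox effects, for which no member was called, so 9 calls against 1 do not show that the effects differ.

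**Figure D4:**
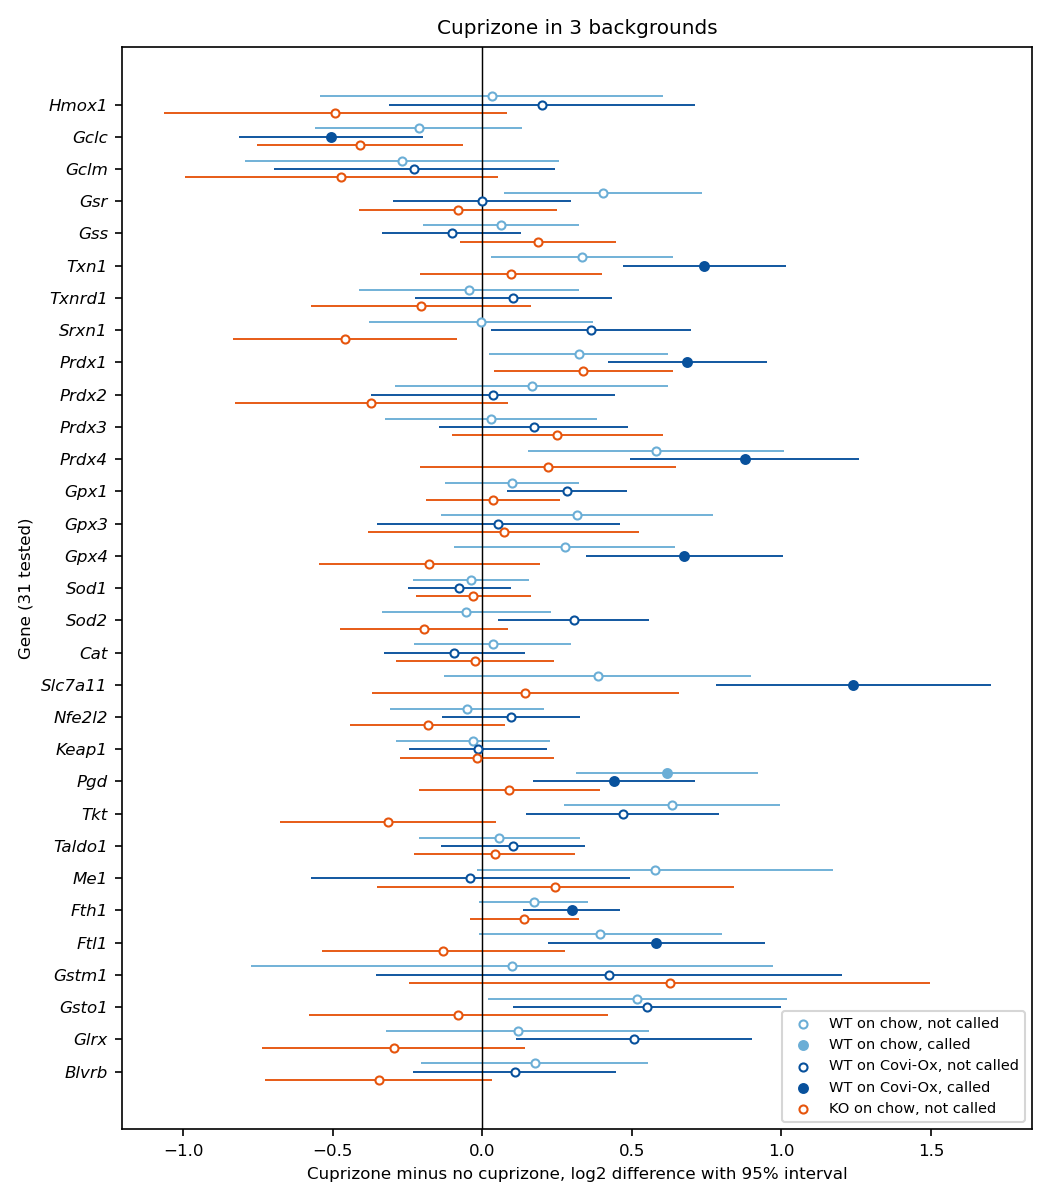
Points are the log2 difference, with minus without cuprizone, for the 31 genes tested in WT on Covi-Ox, WT on chow and KO on chow; filled points are called and lines are 95% intervals. The 9 filled points on Covi-Ox and the 1 on chow (Pgd) belong to WT.

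In KO on chow, cuprizone called 0 of 31 members (0.0423% of all genes; limma), with a median of -0.03 beside 0.00. The smallest adjusted p was that of Srxn1, at -0.46 (limma adjusted p = 0.283). Without KO cuprizone 1, Hmox1 was called. Calls of fits that left a single array in KO control are not given. The difference between the genotypes in the cuprizone effect was called for 0 of 31 members (0.228% of all genes). It was negative, that is a smaller rise or larger fall in KO, for 25 of 31 members, with a median of -0.24 beside 0.01. Tkt had the smallest adjusted p (-0.95 ± 0.24, limma adjusted p = 0.15). It read 6.85 and 7.18 in WT control and 7.56, 7.46 and 7.93 in WT cuprizone. In KO it read 7.11 and 7.71 in control, and 6.96, 7.12 and 7.22 with cuprizone. The test rests on control groups of 2 arrays, and members' changes in KO were not shown to differ from those in WT.

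Over the 4 diets, 6 of 31 members (19.4%) were lower in KO than in WT and 0 were higher, beside 4.69% of all genes called lower and 1.68% called higher (6.37% either way). Without Slc7a11 and Me1 the count was 5 of 29 (17.2%). The 6 were the mitochondrial superoxide dismutase Sod2, the secreted glutathione peroxidase Gpx3, Prdx1, Slc7a11, Pgd and Fth1. The differences were small, and the WT and KO ranges overlapped for all 6. In all, 25 of 31 members had a negative difference, with a median of -0.16 beside -0.01 over all genes, and 14 of 31 (45.2%) had an unadjusted p under 0.05, against 22.6% of all genes. Marker lists moved between the genotypes too, KO minus WT: the microglia mean by 0.16, monocyte by -0.23, border macrophage by -0.19, endothelial by -0.12, immediate-early by -0.11 and neutrophil by -0.03. Their part in the members' differences was not tested. The labels give no strain, so differences between KO and WT cannot be told apart from differences of strain background.

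Sod2 had the smallest adjusted p. It read 6.72 and 6.97 in control, 6.70, 6.66 and 6.69 with Covi-Ox, 6.75, 6.80 and 6.83 with cuprizone, and 6.93, 7.01 and 7.02 with both in WT. In KO, Sod2 read 6.66 and 6.31 in control, 6.31, 6.36 and 6.20 with cuprizone, 6.81, 6.49 and 6.36 in set A, and 6.23, 6.41 and 6.58 in set B. The WT arrays ran from 6.66 to 7.02, median 6.80, and the KO arrays from 6.20 to 6.81, median 6.36, with 10 of 11 KO arrays below the lowest WT array. The difference, KO minus WT, was -0.39 ± 0.06 (limma adjusted p = 0.000585). Gpx3 read 5.44 and 5.53 in control, 5.86, 5.36 and 5.78 with Covi-Ox, 5.95, 5.62 and 5.83 with cuprizone, and 5.65, 5.93 and 5.58 with both in WT. In KO it read 5.34 and 4.94 in control, 5.56, 5.33 and 4.74 with cuprizone, 5.08, 5.41 and 5.79 in set A, and 5.34, 5.29 and 5.26 in set B. Its WT arrays ran from 5.36 to 5.95, median 5.65, and its KO arrays from 4.74 to 5.79, median 5.33, for a difference of -0.40 ± 0.10 (limma adjusted p = 0.0242).

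The other 4 were members that cuprizone had raised in WT on Covi-Ox, and their array values are given above. Prdx1 was -0.29 ± 0.07 in KO relative to WT (limma adjusted p = 0.0127), and its second probe set -0.20 ± 0.06 (limma adjusted p = 0.0556). Slc7a11 was -0.46 ± 0.12 (limma adjusted p = 0.022), a gene that only 2 WT arrays brought past the filter. Pgd was -0.28 ± 0.07 (limma adjusted p = 0.0201) and Fth1 -0.16 ± 0.04 (limma adjusted p = 0.0219). The WT both arrays that carry their high values also enter this comparison, so the sets of calls are not independent. Sod2 and Prdx1 were called whichever array was left out and under all 9 other settings. The count fell to 3 without WT control 2 (Prdx1, Sod2, Slc7a11) and without the 3 low arrays (Prdx1, Sod2, Pgd), and rose to 9 without KO control 1. Slc7a11 was also lost without WT control 1, and Gpx3 and Pgd without KO control 2. Gsto1 was gained without KO control 2 or WT cuprizone 2, and Hmox1 without KO cuprizone 1.

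**Figure D5:**
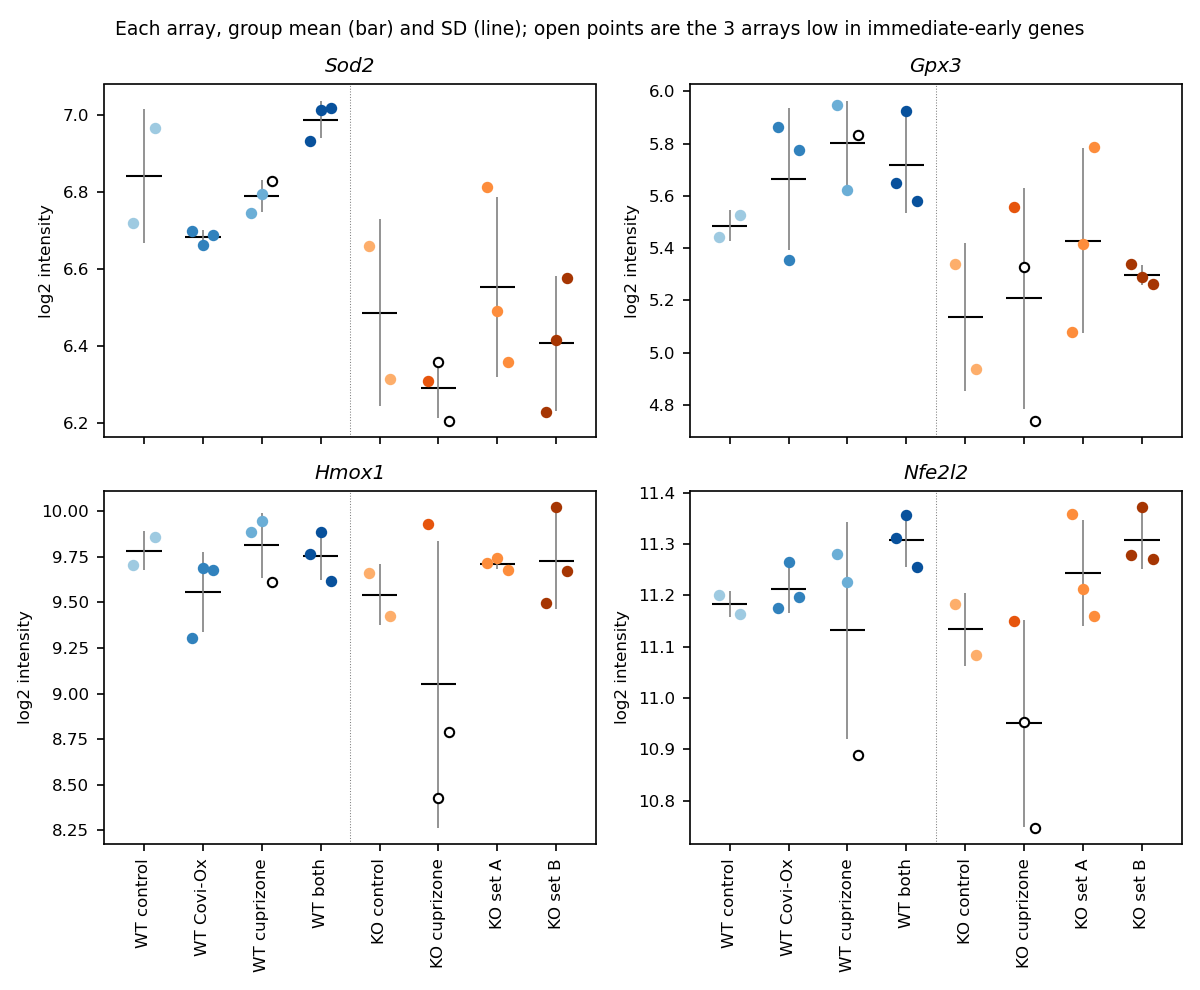
Every array of Sod2, Gpx3, Hmox1 and Nfe2l2 (log2 intensity) by group, with the group mean as a bar and the SD as a line; open points are the 3 arrays low in immediate-early genes. Sod2 lies lower in KO, and Hmox1 is low in KO cuprizone 2 and 3 only.

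On the probe set used for each, the remaining members were not called in any comparison: Hmox1, Gclm, Gsr, Gss, Txnrd1, Srxn1, Prdx2, Prdx3, Gpx1, Sod1, Cat, Nfe2l2, Keap1, Tkt, Taldo1, Me1, Gstm1, Gsto1, Glrx and Blvrb. Taldo1, a pentose phosphate enzyme, was the member of WT with an unadjusted p under 0.05 for Covi-Ox (-0.19 ± 0.09, limma adjusted p = 0.536). Me1, an NADPH source, differed between genotypes in its Covi-Ox effect by 0.62 ± 0.27 (limma adjusted p = 0.731). It was dim, however, and passed the filter only through WT cuprizone 2 and KO set A 1. Gsto1, an omega glutathione transferase, and glutaredoxin (Glrx), which reduces glutathionylated proteins, were 0.55 and 0.51 higher with cuprizone on Covi-Ox in WT, with limma adjusted p = 0.132 and 0.114.

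Genes of the surrounding pathways were counted likewise. Of 132 tested genes on 7 lists around the members (members left out; some genes are on 2 lists), 1 was called for Covi-Ox in WT (0.758%) and 0 in KO. It was Lcn2 (-1.67 ± 0.33, limma adjusted p = 0.0381), an iron-siderophore carrier that is also on the neutrophil list. Between WT both and WT Covi-Ox, 14 were higher and 12 lower (19.7%, beside 7.82% of all genes), and between KO and WT 7 were higher and 13 lower (15.2%, beside 6.37%).

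Among 32 further glutathione and thioredoxin genes, 2 rose and 4 fell with cuprizone on Covi-Ox in WT. Over all genes, 4.65% were called higher and 3.17% lower. The largest were the selenoproteins Selenow (0.87) and Msrb1 (0.67), up, and Txnip (-0.76) and Sesn1 (-0.74), down. Txnip binds and inhibits thioredoxin; it was -0.76 ± 0.13 here (limma adjusted p = 0.000639), opposite to Txn1, and 0.29 ± 0.07 in KO relative to WT (limma adjusted p = 0.0116). Of 28 NRF2 regulators and further targets, 2 rose, Ephx1 (0.96) and Maff (0.76, also an immediate-early gene), and 1 fell, Txnip again. The same shares of all genes stand beside this count. The median of the NRF2 list was 0.05 beside -0.03 over all genes.

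Of 29 heme and iron genes, 1 rose and 5 fell between WT both and WT Covi-Ox, beside 4.65% of all genes called higher and 3.17% lower. Alas1, which starts heme synthesis, rose by 0.51. The iron exporter ferroportin (Slc40a1) fell by 0.73 ± 0.16 (limma adjusted p = 0.00695). Both ferritin chains rose, but each of these calls held in only 1 of 6 fits with an array left out. Ncoa4, which delivers ferritin for breakdown, was at -0.40, and the hemoglobin-haptoglobin receptor Cd163 at -1.10; Cd163 is also a border macrophage marker, and that list fell. The transferrin receptor Tfrc was -0.60 ± 0.10 in KO relative to WT (limma adjusted p = 0.000712). Of 13 NADPH supply genes, Pgls (0.66) rose and Idh2 (-0.60) fell with cuprizone on Covi-Ox, beside the same shares of all genes. Nnt is the mitochondrial transhydrogenase that makes NADPH. It ran from 6.02 to 6.58 in the 11 WT arrays and 7.10 to 7.50 in the 11 KO arrays, without overlap. The difference was 0.86 ± 0.07 (limma adjusted p = 5.69e-08). As the labels give no strain, it cannot be told apart from a difference of strain background.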

How the data were processed

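The authors deposited 1 table of intensity values on a linear scale for 28098 probe sets on 22 Affymetrix arrays; RMA was used, per the submitters' processing notes, and the build is not given in the sources used here. Array medians were 36.1 to 38.6. The deposited intensity was turned to log2. Probe sets were named from GEO's platform annotation: 21640 had 1 gene, 1321 several and 5137 none listed. A gene was tested if 2 or more arrays had it over their 50th percentile. limma 3.58.1 (R 4.3.3) fitted 1 model of 8 group means over all arrays, for 16 contrasts, with Benjamini-Hochberg adjustment over 11830 genes and a threshold of 0.05. Values on every array are given for members called anywhere and for a fixed set of textbook members; of each pathway list, up to 4 called genes are named. The members and lists were chosen with earlier results of these data known. Code was tested on simulated data. Alternatives were a replicate block, only the groups compared, other filters and scalings, all probe sets averaged, robust variances, and arrays left out.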

Additional observations from a re-analysis of the deposited data

Results flagged for a closer look

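No member met a rule for a closer look, and groups of 2 or 3 arrays are too small for a check of single arrays. Of the 132 tested pathway genes around the members, 2 (1.52%) differed between the genotypes in the cuprizone effect on chow. This was by a test of the difference itself, which called 0.228% of all genes. For Ephx1, the microsomal epoxide hydrolase, the effect in KO minus that in WT was -1.58 ± 0.32 (limma adjusted p = 0.0426): cuprizone minus control was 1.5 in WT and -0.08 in KO. For Lpl the difference was -2.56 ± 0.43 (limma adjusted p = 0.0117), from 3.36 in WT and 0.80 in KO.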

How the results depend on the processing

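Of 144 counts of called members under other settings, 140 stayed within 1.5 times the reported count. The count for cuprizone on chow in WT went from 1 to 0 when only the arrays of the groups compared were fitted, to 2 with a filter at the 75th percentile, and to 2 with a trend and robust variance; the KO minus WT count went from 6 to 3 without the 3 arrays low in immediate-early genes. The Hmox1 values in KO changed sign without those 3 arrays, to -0.0158 for Covi-Ox, -0.22 for set A minus cuprizone and -0.20 for set B minus cuprizone. Of 141 values of called members under other settings, 124 stayed called in the same direction, and of 191 with an array left out, 159 did. With an array left out, called members ranged from 4 to 10 for WT both minus WT Covi-Ox, 0 to 2 for WT cuprizone minus WT control, 3 to 9 for KO minus WT, 0 to 2 for KO cuprizone minus KO control, 0 to 1 for the genotype difference of the cuprizone effect, 0 to 1 for Covi-Ox in KO, 0 to 3 for set A and 0 to 1 for set B minus control, and 0 to 1 for set A and 0 to 2 for set B minus cuprizone; the other 6 comparisons stayed at 0. For WT both minus WT Covi-Ox the range was 4 to 6 when the array left out was 1 of the 6 in its own groups. Counts above 6 there came from leaving out an array of another group, which changes the shared variance estimate only. The 191 values above use only arrays of the groups compared. A control group left with 1 array was assumed to vary like the other groups. The labels give replicate numbers that groups share, but over 71 pairs with the same number the residual correlation had a median of 0.00 (-0.23 to 0.25), so the numbers were not taken as pairs. With the replicate number as a block, WT both minus WT Covi-Ox called 7 members (Gclc and Ftl1 were lost), WT cuprizone minus WT control 1 and KO minus WT 6. The number of arrays limits the precision: the median SE over genes was 0.14 between groups of 3.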

Other observations

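The NADPH oxidase of phagocytes is a source of the superoxide that the members remove. Of its 6 tested genes, 1 was called for cuprizone on chow in WT (2.5% of all genes), 3 for cuprizone on Covi-Ox (7.82%) and 1 between genotypes (6.37%). Cybb, the catalytic subunit, was 1.24 ± 0.22 higher with cuprizone on chow in WT (limma adjusted p = 0.00328) and 1.48 ± 0.20 higher on Covi-Ox (limma adjusted p = 5.44e-05), and its partner Cyba was 0.78 higher on Covi-Ox. Ncf1 was -0.33 there. Cybb ran from 7.48 to 9.48 in WT and 6.78 to 7.96 in KO, for -1.03 ± 0.10 KO minus WT (limma adjusted p = 1.66e-06). No oxidase gene was called for Covi-Ox in either genotype.

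Of 16 lipid peroxidation and ferroptosis genes, Ptgs2 (2.83) rose and Alox5ap (-0.55) fell with cuprizone on Covi-Ox in WT. Over all genes, 4.65% were called higher and 3.17% lower. The list median was 0.00 beside -0.03 over all genes. Of 12 genes listed for tocopherol uptake, transfer and metabolism, 0 were called for Covi-Ox in WT or KO. With cuprizone on Covi-Ox in WT, 5 of this list rose, beside 4.65% of all genes called higher. They were lipoprotein lipase Lpl (3.76), Cyp4f18 (1.57), Tap1 (0.71), Sec14l2 (0.46) and the lipid exporter Abca1 (0.37 ± 0.11, limma adjusted p = 0.0411). Tap1 was listed by symbol, but it encodes an antigen peptide transporter and is not a tocopherol gene. Ttpa, the liver tocopherol transfer protein, lay at 2.48 to 3.29 and was not tested.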
